A study of Mus musculus with 4 samples.

Results

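The NR4A and EGR families are immediate early transcription factors, and their messenger RNAs serve in T cells as readouts of recent antigen receptor signal. The measurements described here cover Nr4a1, Nr4a2, Nr4a3, Egr1, Egr2 and Egr3 together with Myc, taken as every probe set of the array whose annotated gene symbol is exactly one of these 7 names. They are 7 of the 18193 genes named on the array and comprised 16 of its 45101 probe sets. All 4 arrays held RNA of mouse CD4+YFP+Ly5.2+ T cells that had been exposed to Cre recombinase through HR-MMPCreGFP and recovered 6 weeks after adoptive transfer. For 2 of the samples loxP sites flanked the Foxp3 gene, so that Cre could remove it (Foxp3-deleted cells, labelled Foxp3delta), and for the other 2 the Foxp3 gene was wild type. YFP, switched on by Cre, marked the exposed cells in both groups. The series text describes the starting population as peripheral regulatory T (Treg) cells, and the labels give no age of the animals and do not say whether the 2 samples of a group came from separate animals. The p-values thus reflect how far these particular samples lie apart, and that spread may be technical.

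Engagement of the antigen receptor raises calcium and activates the ERK kinases, and both routes switch on NR4A and EGR genes within the first hour without new protein synthesis. NR4A1 (Nur77), NR4A2 (Nurr1) and NR4A3 (NOR1) are orphan nuclear receptors, and in Treg cells they help to maintain Foxp3 and lineage identity. EGR1, EGR2 and EGR3 are zinc finger factors downstream of ERK, of which EGR2 and EGR3 also restrain T cells by inducing inhibitors of receptor signalling. MYC, a basic helix-loop-helix factor, drives growth and biosynthesis after activation and is itself induced early.

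The sequence just upstream of the start of transcription is shown for the 3 NR4A genes and for Egr2. A link between these sequences and the differences between the groups was not tested. RefSeq windows (GRCm38.p6) of the members were taken by symbol, with a chromosome left out by choice. They cover 4 of the 7 genes, Nr4a1, Nr4a2, Nr4a3 and Egr2. No elements are reported for Egr1, Egr3 and Myc, so the windows do not compare the NR4A genes with these. Each line gives the 250 bases before the start, 5′ to 3′ on the strand of the gene. Capitals mark TGACG on either strand, the core of the element bound by CREB and ATF factors, and the CArG box bound by serum response factor. Of the 5 Egr2 windows the first that held both elements is shown.

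Nr4a1: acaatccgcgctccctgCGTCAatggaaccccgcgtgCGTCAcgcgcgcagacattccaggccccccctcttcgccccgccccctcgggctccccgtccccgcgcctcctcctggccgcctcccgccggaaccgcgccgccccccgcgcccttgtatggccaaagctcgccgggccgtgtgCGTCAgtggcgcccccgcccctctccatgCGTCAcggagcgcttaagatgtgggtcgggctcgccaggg

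Nr4a2: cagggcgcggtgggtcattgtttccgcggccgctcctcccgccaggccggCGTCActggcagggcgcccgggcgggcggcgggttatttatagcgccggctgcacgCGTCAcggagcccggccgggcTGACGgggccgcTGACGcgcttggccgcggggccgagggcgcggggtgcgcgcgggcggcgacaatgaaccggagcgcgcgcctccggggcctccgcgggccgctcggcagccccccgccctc

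Nr4a3: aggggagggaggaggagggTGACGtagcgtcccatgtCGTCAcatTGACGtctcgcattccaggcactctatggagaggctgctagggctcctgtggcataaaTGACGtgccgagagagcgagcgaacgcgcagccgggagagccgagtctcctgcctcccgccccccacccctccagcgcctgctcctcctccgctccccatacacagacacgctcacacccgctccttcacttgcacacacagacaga

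Egr2: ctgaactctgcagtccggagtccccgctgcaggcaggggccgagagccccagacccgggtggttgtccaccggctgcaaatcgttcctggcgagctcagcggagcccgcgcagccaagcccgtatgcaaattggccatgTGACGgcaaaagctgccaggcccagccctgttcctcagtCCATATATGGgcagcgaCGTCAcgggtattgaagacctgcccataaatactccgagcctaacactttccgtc

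The windows lie at chr15:101266596-101266845 (plus strand) for Nr4a1, chr2:57124004-57124253 (minus strand) for Nr4a2, chr4:48045055-48045304 (plus strand) for Nr4a3 and chr10:67537619-67537868 (plus strand) for Egr2. Each of the 3 NR4A windows held TGACG 4 times, counted on both strands with overlapping matches merged. Of 32851 windows of the same length in the mouse table, 17.8% held it at least 1 time and 0.0487% at least 4 times, which is 16 windows of 16 genes, the NR4A genes among them. The Egr2 window held TGACG 2 times and 1 CArG box, an element found in 1.47% of all windows. As it was chosen for holding both elements, that share is no test of its content. Of the 5 Egr2 windows 4 held a CArG box and some held no TGACG. Those with both elements overlap one another and share the same sites. The longer palindrome TGACGTCA, which contains TGACG and occurs in 1.55% of windows, was in none of the 4 windows shown. GCGGGGGCG, a form of the EGR recognition sequence present in 2.57% of windows, occurred 1 time in the Nr4a1 window, and the form GCGTGGGCG (0.536%) in none of the 4. The NR4A response element AAAGGTCA (1.34% of windows) and the MYC E-box CACGTG (6.02%) were likewise in none of the 4, although another Egr2 window held the E-box. These matches describe the letters of the windows and say nothing of binding.

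Foxp3 itself, on its single probe set, had log2 intensities of 8.77 and 8.75 in Foxp3-deleted samples and 11.40 and 11.23 in wild-type samples. The position of its probes was not known here, and probes outside the excised part would not check the labels. Of the T cell markers, Cd3d, Cd3e and Cd3g lay between 10.53 and 12.39 on all arrays. Cd4 was higher in both deleted samples, with 9.03 and 9.63 beside 8.38 and 7.15 (1.56, SE 0.53), and Cd2 was lower, with 11.34 and 10.09 beside 11.44 and 11.798 (-0.91, SE 0.47). Cd8a and Cd8b1 stayed below 4. The 5 Treg markers (Foxp3, Il2ra, Ctla4, Ikzf2, Tnfrsf18) read lower in deleted cells, with summed intensities of 2731 to 4674 against 17590 to 18830. Of markers of other cells, the B cell genes Cd79a and Pax5, the myeloid genes Itgam and Cd14 and the NK cell gene Ncr1 were below 4 on every array. Cd79b was the 1 tested B cell marker of 4 measured and differed by -2.04, and the 4 summed to 39.2 to 52.8 against 114.0 to 123.7. The summed myeloid markers (6 measured, 4 tested) read 620.0 to 1861 against 518.7 to 636.6. The 4 tested ones, Csf1r (0.71), Lyz2 (1.55), Fcer1g (1.02) and Adgre1 (0.04), had positive differences, and Lyz2 and Fcer1g were highest in deleted replicate 1 (9.69 and 6.30). Csf1r lay between 8.30 and 9.85 on all arrays. The NK cell markers (3 measured, 2 tested) summed to 1251 to 2580 against 494.1 to 500.0, of which Nkg7 (2.005), also made by cytotoxic T cells, formed the larger part, and Klra8 differed by 0.47 with overlap. The red cell gene Alas2 differed by 0.08 near the floor. The part of these cells in the values below was not tested. Fewer cells that express a gene and less RNA per cell cannot be told apart in such bulk samples.

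Of the 16 member probe sets, 9 had a mean log2 intensity of at least 4 over the 4 arrays and were tested, at least 1 for each gene. The other 7, of Nr4a2, Nr4a3 and Egr3, lay between 1.49 and 3.50 on every array, close to the floor of the background-corrected scale, and differed between the groups by -0.18 to -0.01. Over all 16, 12 were lower in both deleted arrays than in both wild-type arrays, against 40.7% of all 45037 non-control probe sets. Of the 9 tested members 6 were, against 21.1% of the 16281 tested probe sets. No member was higher in both deleted arrays, against 8.7% of all non-control and 18.8% of the tested probe sets. The share over all probe sets is high and one-sided, with most probe sets dim, and 6 of the 12 were among the 7 near the floor. A difference of at least 1 on the log2 scale without overlap was found in the lower direction for 3 of the 16, all of them tested. The shares were 2.0% of all non-control probe sets and 4.58% of the tested ones. In the higher direction it was found for 0 of the 16, against 2.76% and 6.66%. Nr4a1 (-1.019) and Nr4a2 on 1447863_s_at (-0.996) lay on either side of the cut-off. The lower count was 2 with log2(value + 16), and 4 with quantile normalization or each array centred on its median. The median difference over the 16 was -0.13, and -0.03 over all non-control probe sets. No probe set of the array passed an adjusted p of 0.05 in limma, while 631 lower and 876 higher ones had an unadjusted p under 0.05 (3.88% and 5.38%), including 2 member probe sets, of Nr4a2 and Nr4a3.

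**Figure D1:**
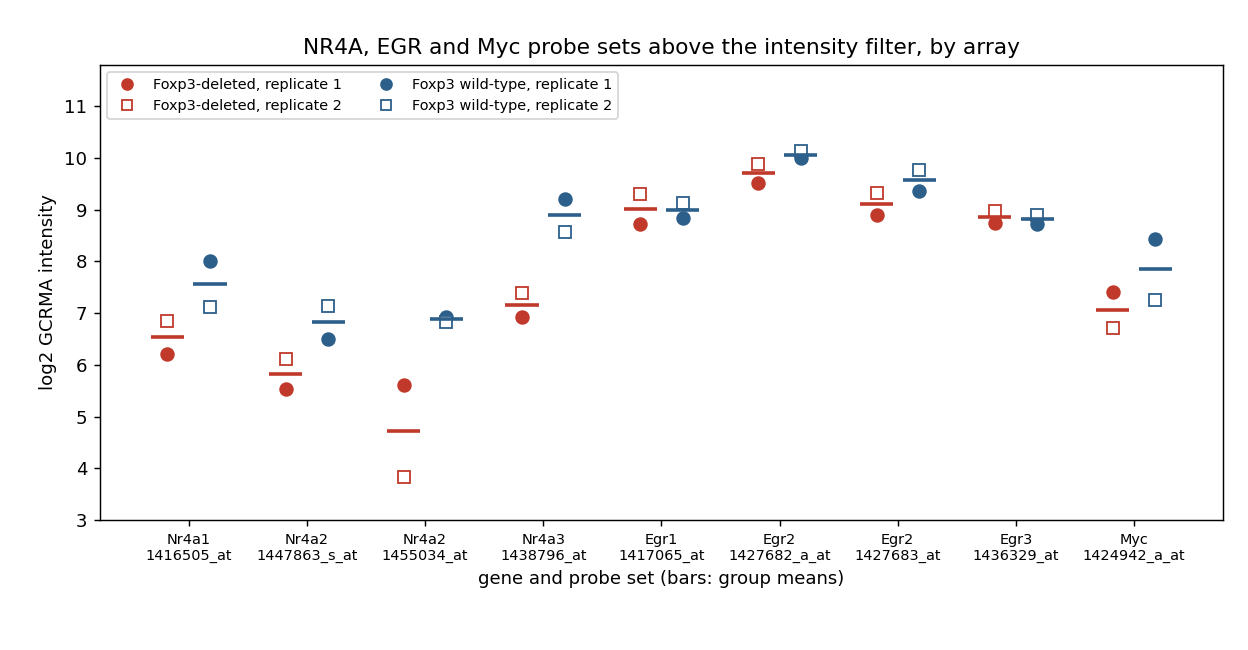
Log2 GCRMA intensity of the 9 tested NR4A, EGR and Myc probe sets on each array, with Foxp3-deleted samples in red, wild-type samples in blue, circles for replicate 1, squares for replicate 2 and bars for the group means (n = 2). The red points lie below the blue ones for Nr4a1, both Nr4a2 probe sets, Nr4a3 and both Egr2 probe sets, and the groups overlap for Egr1, Egr3 and Myc; heights of different probe sets cannot be compared.

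The NR4A receptors gave the larger differences among the members. Nr4a3, which serves as a reporter of antigen receptor signals in T cells, had log2 intensities of 6.92 and 7.39 in deleted samples and 9.21 and 8.58 in wild-type samples on probe set 1438796_at. Both deleted samples thus lay below both wild-type samples, by 1.19 to 2.28 over the 4 pairs of arrays. The group means were 7.16 ± 0.33 and 8.89 ± 0.45 (SD, n = 2 per group), a difference of -1.74 (SE 0.41, 95% interval -2.79 to -0.69) that left 30.0% of the wild-type signal, with an unadjusted p = 0.00811 and an adjusted p = 0.329 in limma. Only 1.23% of the tested probe sets had a lower difference. The 2 other Nr4a3 probe sets, 1421079_at and 1421080_at, read 2.08 to 2.16 on all arrays.

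Nr4a2 encodes NURR1, best known for its role in dopamine neurons and also induced in activated T cells. It was represented by 6 probe sets, of which 2 passed the filter. On 1455034_at deleted cells read 5.60 and 3.84 and wild-type cells 6.93 and 6.83. The wild-type samples nearly coincided, whereas the deleted samples lay far apart, replicate 2 being the lower. The difference was -2.16 (SE 0.65, 95% interval -3.84 to -0.48, unadjusted p = 0.0212, adjusted p = 0.433 in limma), with 22.4% of the wild-type signal left. The value of deleted replicate 2 lay below a log2 intensity of 4, near the floor, so the size is uncertain, and with log2(value + 16) the difference was -1.60. Leaving out deleted replicate 2 gave -1.28, and leaving out deleted replicate 1 gave -3.04.

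On 1447863_s_at, a set whose suffix marks probes shared by more than one transcript, Nr4a2 read 5.54 and 6.11 in deleted samples and 6.51 and 7.13 in wild-type samples. Here too the groups did not overlap, but deleted replicate 1 was the lower of its group, opposite to the order on 1455034_at. The difference was -0.996 (SE 0.43, 95% interval -2.11 to 0.11, adjusted p = 0.585 in limma), or 50.1% of the wild-type signal. The remaining 4 probe sets of Nr4a2 differed by -0.18 to -0.05 near the floor.

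Nr4a1 encodes NUR77, whose level after stimulation is widely used as a measure of antigen receptor signal strength. Its 1 probe set, 1416505_at, read 6.22 and 6.86 in deleted samples and 8.003 and 7.11 in wild-type samples. The groups did not overlap, but deleted replicate 2 and wild-type replicate 2 were only 0.25 apart. The means were 6.54 ± 0.45 and 7.56 ± 0.63 (SD, n = 2), a difference of -1.02 (SE 0.49, 95% interval -2.27 to 0.23) with an unadjusted p = 0.0901 and an adjusted p = 0.623 in limma. Nr4a1 kept 49.4% of the wild-type signal. Without wild-type replicate 1 the difference was -0.57.

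EGR transcripts differed less, and their intervals reached both sides of 0. EGR2 is the family member tied to T cell anergy and tolerance. On 1427682_a_at Egr2 read 9.52 and 9.89 in deleted samples and 10.00 and 10.14 in wild-type samples, and on 1427683_at it read 8.90 and 9.33 against 9.36 and 9.77. Both probe sets were lower in both deleted samples, though on the second the nearest samples were 0.03 apart. The differences were -0.37 (SE 0.29, 95% interval -1.12 to 0.39, adjusted p = 0.755) and -0.45 (SE 0.34, 95% interval -1.33 to 0.43, adjusted p = 0.747) in limma, which left 77.6% and 73.3% of the wild-type signal. Lower differences were held by 23.5% and 19.2% of the tested probe sets. Over the fits that left out 1 array the differences ran from -0.55 to -0.18 and from -0.66 to -0.23, and in both cases the smallest was that without deleted replicate 1.

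Egr1, the family member induced in most cell types by growth factors and stress, read 8.72 and 9.31 in deleted samples and 8.84 and 9.13 in wild-type samples on 1417065_at. The deleted samples lay on either side of the wild-type samples, with a difference of 0.03 (SE 0.36, 95% interval -0.90 to 0.96, adjusted p = 0.993 in limma). Egr3, which overlaps with EGR2 in restraining T cells, read 8.75 and 8.98 against 8.73 and 8.90 on 1436329_at. Its groups were interleaved, with a difference of 0.05 (SE 0.32, 95% interval -0.76 to 0.86, adjusted p = 0.979 in limma). The sign of both differences turned with the array left out and with quantile normalization, so neither has a direction. The intervals allow changes of close to 1 on the log2 scale either way, and a p that misses the threshold does not show that Egr1 and Egr3 were equal in the groups. The other Egr3 probe set, 1421486_at, read 1.489 to 1.502 on all arrays.

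Myc read 7.41 and 6.72 in deleted samples and 8.44 and 7.26 in wild-type samples on its 1 probe set, 1424942_a_at. Deleted replicate 1 lay above wild-type replicate 2, so the groups overlapped, and 3 of the 4 pairs of arrays had the lower value in the deleted sample. The means were 7.06 ± 0.49 and 7.85 ± 0.84 (SD, n = 2), a difference of -0.79 (SE 0.55, 95% interval -2.20 to 0.62, adjusted p = 0.725 in limma) or 58.0% of the wild-type signal. Wild-type replicate 1 carried much of it, since the difference was -0.20 without that array, and it was -0.44 without deleted replicate 2 and -1.38 without wild-type replicate 2.

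**Figure D2:**
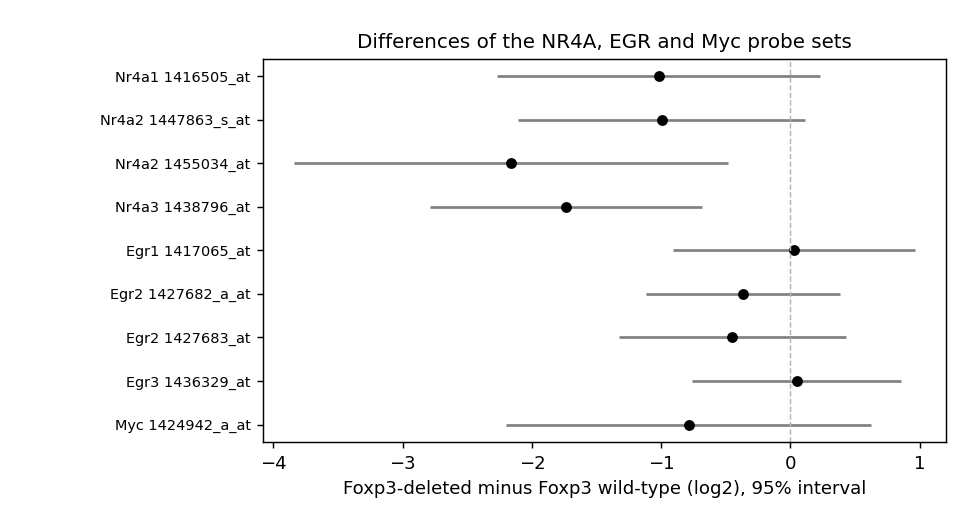
Difference between Foxp3-deleted and Foxp3 wild-type samples (log2, n = 2 per group) for the 9 tested probe sets, with 95% intervals from limma. The intervals of Nr4a3 (-2.79 to -0.69) and of Nr4a2 on 1455034_at (-3.84 to -0.48) lie below 0 before adjustment, and those of the EGR genes, Myc, Nr4a1 and the other Nr4a2 probe set include 0.

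Side by side, the 4 tested NR4A probe sets had differences from -2.16 to -0.996 and the 4 tested EGR probe sets from -0.45 to 0.05. Whether the families differ from each other was not tested. Within a group the 2 samples also disagreed in ways that were not shared by all members. Wild-type replicate 1 was the higher wild-type sample for Nr4a1, Nr4a3, Myc and Nr4a2 on 1455034_at, and wild-type replicate 2 the higher for Egr1, both Egr2 probe sets, Egr3 and Nr4a2 on 1447863_s_at. Among deleted samples replicate 2 was the higher for all tested members except Myc and Nr4a2 on 1455034_at.

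Immediate early genes also respond to the isolation of cells, for which Fos, Jun and heat shock genes serve as markers. Fos, an AP-1 subunit, read 12.06 and 9.20 in deleted samples and 11.19 and 10.22 in wild-type samples, with a difference of -0.07 (SE 0.99). Jun read 9.02 and 7.09 against 8.56 and 7.96 (-0.20), and its second tested probe set differed by -1.33. Hspa1a, an inducible HSP70 gene, read 9.89 and 4.87 against 7.66 and 5.98, and its neighbour in the family Hspa1b 12.69 and 8.92 against 10.32 and 9.91; the 2 genes are near-identical copies whose signals may be shared. These 4 genes were highest in deleted replicate 1 and lowest in deleted replicate 2, and their groups overlapped on these probe sets. Other heat shock genes, by the brightest probe set, had other orders. Hspa8 (14.11 and 14.18 against 14.55 and 14.31), Dnajb1 and Hsph1 were highest in wild-type replicate 1. Hsp90aa1 was highest in deleted replicate 1 (12.27) but lowest in wild-type replicate 1 (11.52). The order of Fos, Jun, Hspa1a and Hspa1b over the arrays was shared by some members and not by others. Nr4a1 and Nr4a3 were lowest in deleted replicate 1, whereas Myc and Nr4a2 on 1455034_at were, like these 4 genes, lowest in deleted replicate 2. Nr4a1, Nr4a3, Myc and Nr4a2 on 1455034_at were also, like them, higher in wild-type replicate 1 than in wild-type replicate 2. Of the 9 tested genes of the heat shock and handling list 0 read lower and 1 read higher by at least 1 without overlap, the latter being Btg2 (2.98, SE 0.34, with 0.45 for its second tested probe set), an antiproliferative gene. Over all 8629 tested genes, each by its brightest probe set, 4.93% read lower and 5.57% higher by this rule. The list had a median of -0.13, against -0.02 over all tested genes. The part of handling in the values of the members was not tested.

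**Figure D3:**
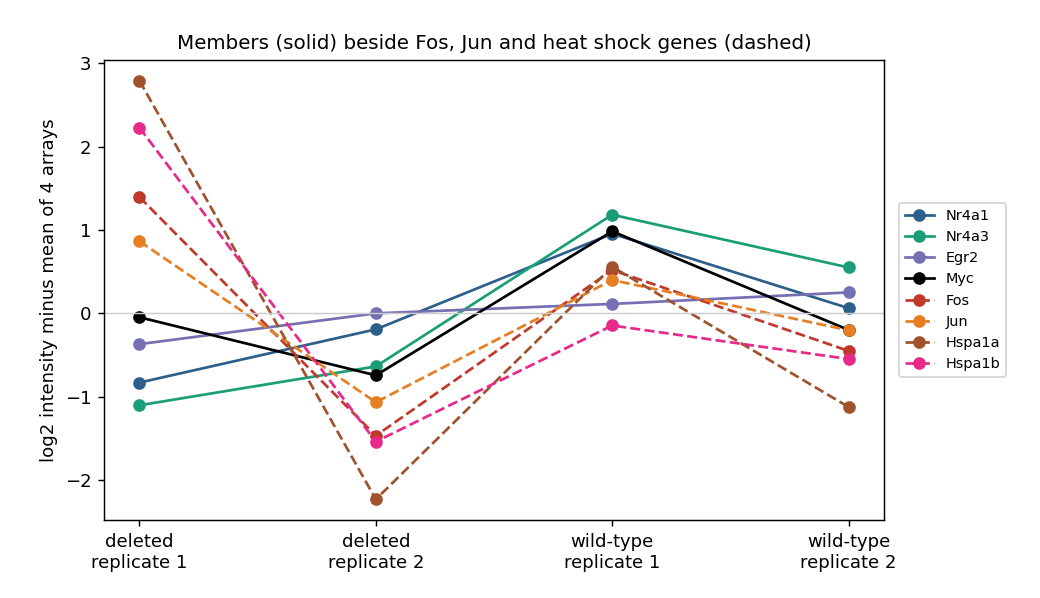
Log2 intensity of Nr4a1, Nr4a3, Egr2 and Myc (solid) and of Fos, Jun, Hspa1a and Hspa1b (dashed) on each of the 4 arrays, each minus its own mean over the arrays. The lines only join the points of a gene and the arrays have no order. Fos, Jun, Hspa1a and Hspa1b are highest in deleted replicate 1 and, like Myc, lowest in deleted replicate 2. Nr4a1, Nr4a3 and Egr2 are lowest in deleted replicate 1. Other heat shock genes, not drawn, had other orders. All but Egr2 are higher in wild-type replicate 1 than in wild-type replicate 2.

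Other antigen receptor early response genes were split. Of 36 listed genes 35 were on the array under a single symbol and 30 were tested, of which 23 had a negative and 7 a positive difference (median -0.35). The list was chosen with earlier results of these data known, so its counts are no test of enrichment over all tested genes. In the lower direction 9 differed by at least 1 without overlap, and in the higher direction 2, where 4.93% and 5.57% of all tested genes did. Ier3, below the filter, read 4.94 and 3.90 in deleted samples and 2.83 and 3.13 in wild-type samples (1.44). Without the filter the counts were 9 lower and 3 higher. Of the 9, Spry1 and Nfil3 had deleted means below 4 (3.75 and 3.90) and passed the filter through the wild-type samples, and with values below 4 raised to 4 the count was 7. Tnfrsf9, the costimulatory receptor 4-1BB that antigen receptor signals induce, read 3.99 and 4.67 in deleted samples and 8.63 and 8.78 in wild-type samples, 4.83% of the wild-type signal. Cd83 read 5.90 and 5.78 against 10.14 and 9.70, and Dusp4, a phosphatase of ERK and other MAP kinases, 4.28 and 4.04 against 7.69 and 7.14. Tnfrsf4, the costimulatory receptor OX40, differed by -2.36 (SE 0.33). The other members of this kind were Gadd45b (-2.07, and -0.36 on its second tested probe set), Irf4 (-1.66), a factor whose level follows receptor signal strength, Dusp1 (-1.20), Spry1 (-1.19), a feedback inhibitor of ERK signalling, and Nfil3 (-1.05). The 2 higher ones were Dusp6, a phosphatase specific for ERK (1.91, SE 0.73), and Bhlhe40, a transcriptional repressor (1.33, SE 0.41). None passed an adjusted p of 0.05 in limma. Leaving out deleted replicate 1 raised the count of lower genes to 14, and leaving out deleted replicate 2 took it to 6. The count of higher genes was 0 when wild-type replicate 1 was left out and 4 when wild-type replicate 2 was. Lack of overlap is easier to meet when an array is left out. The shares over all tested genes in those fits are not given, so a shift common to all genes is not separated. Tnfrsf9, Cd83 and Tnfrsf4 also mark Treg cells in general.

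**Figure D4:**
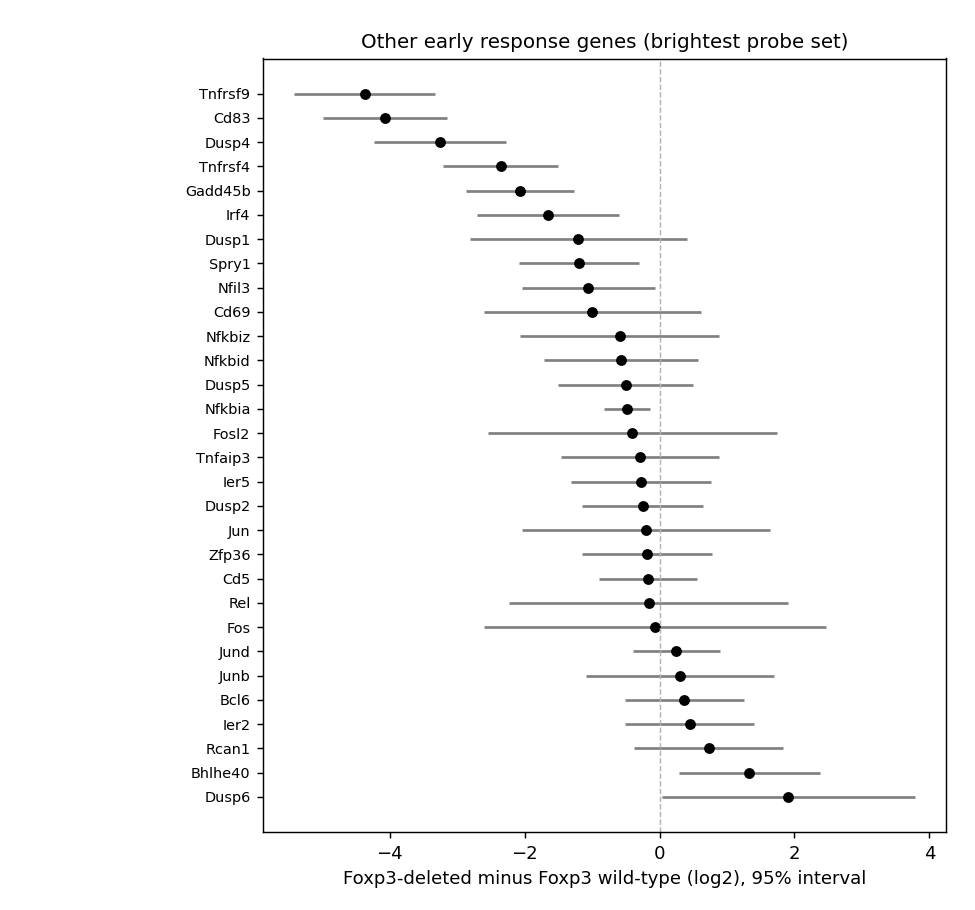
Difference between Foxp3-deleted and Foxp3 wild-type samples (log2, n = 2 per group) for 30 other early response genes, with 95% intervals from limma. The points run from Tnfrsf9 at -4.37 to Dusp6 at 1.91, with Fos at -0.07 near 0 and a wide interval.

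Direct partners and regulators of the members did not share a direction. The EGR co-repressor gene Nab1 read 10.60 and 11.04 in deleted samples and 9.88 and 9.82 in wild-type samples, a difference of 0.97 (SE 0.28), and its other tested probe set gave 1.02. Nab2, the co-repressor that EGR factors themselves induce, differed by -0.36 (SE 0.42) with overlap, and Egr4 was below the filter. Rxra, a nuclear receptor that pairs with NR4A1 and NR4A2, read 6.59 and 6.95 against 7.57 and 7.87 (-0.95, SE 0.37), Rxrb differed by -0.63 (SE 0.40), and Rxrg was below the filter. Of these 4 tested genes 0 reached a difference of 1 on the brightest probe set.

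Of 9 tested upstream signal factors 7 had a positive difference (median 0.51, against -0.02 over all tested genes), and 1 was higher by at least 1 without overlap, a rule met by 5.57% of all tested genes. This was Creb1, whose product binds the TGACG core shown above, with 9.79 and 10.50 against 8.62 and 8.71 (1.49, SE 0.36). Its 4 tested probe sets disagreed, from -0.44 to 1.49. Nfatc3 and Nfatc2, calcium-dependent factors, differed by 0.62 (1.72 on the second Nfatc3 probe set) and 0.58, and Elk4, a partner of serum response factor, by 0.60 on its brightest probe set and -0.39 on the other.

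Genes linked to EGR2 and EGR3 in anergy gave 6 negative and 3 positive differences among 9 tested of 10 (median -0.42). Ndrg1, a stress-response gene that acts as an anergy factor, read 7.72 and 6.84 in deleted samples and 9.62 and 9.40 in wild-type samples (-2.23, SE 0.43, with -1.99 for its second probe set), and was the 1 gene of the 9 lower by at least 1 without overlap, where 4.93% of all tested genes were. The ubiquitin ligase genes Cblb and Rnf128 differed by -0.74 (SE 0.45) and -0.51 (SE 0.35), while Dgka, a kinase that removes diacylglycerol, differed by 0.54 (SE 0.26).

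For MYC, 8 of 9 network partners were tested, and 0 of them differed by at least 1 without overlap (median -0.41). Mycn, the paralogue of Myc, read 6.56 and 6.92 against 7.51 and 7.54 (-0.79, SE 0.36). The antagonist genes Mnt, Mxd3 and Mxd4 differed by 0.69, -0.65 and -0.61, of which the 3 tested Mxd3 probe sets ran from -0.65 to 0.48. Of 20 biosynthesis genes known as MYC targets, all tested, 14 had a negative and 6 a positive difference (median -0.14), and 1 was lower by at least 1 without overlap, a share close to the 4.93% of all tested genes. That gene was Slc7a5, a large neutral amino acid transporter, with 4.59 and 5.68 against 6.43 and 6.76 (-1.46, SE 0.49). Odc1, the rate-limiting enzyme of polyamine synthesis, differed by -0.92 (SE 0.28) and its 3 tested probe sets ran from -1.10 to -0.92. The nucleolar genes Ncl and Nolc1 differed by -0.97 and -0.88, but their tested probe sets ran up to 1.05 and 0.44.

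Of 10 tested T cell genes linked to NR4A factors, 6 read lower and 2 higher by at least 1 without overlap (median -2.22, against -0.02 over all tested genes), where 4.93% and 5.57% of all tested genes did. Havcr2 and Entpd1, counted among the 6, had deleted means near the floor (3.003 and 3.44) and passed the filter through the wild-type samples. The lower ones were Il2ra, Havcr2, Ctla4, Entpd1, Ikzf4 and Ikzf2, all known Treg cell genes, 3 of which are also in the Treg marker list above, and their differences were known when the list was written. Havcr2, an inhibitory receptor, read 3.20 and 2.81 in deleted samples and 6.95 and 6.83 in wild-type samples. Entpd1, the ectonucleotidase CD39, read 3.53 and 3.36 against 7.12 and 4.89. The higher ones were Bcl2l11, which encodes the pro-apoptotic protein BIM (2.26, with tested probe sets from 0.69), and Runx1, a partner of Foxp3 (1.33, with tested probe sets from 0.17). None of the genes of these lists passed an adjusted p of 0.05 in limma.

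Genes with the most similar pattern were sought by the Euclidean distance between log2 values of the 4 arrays, each centred on its own mean, among 8622 tested genes. For Nr4a3, taken because its probe set was the brightest of the family, which says nothing of transcript levels, these were Cenpu (distance 0.17), Ldhb (0.17) and Irf4 (0.19). Ldhb read 7.85 and 8.40 in deleted samples and 10.09 and 9.35 in wild-type samples. For Egr2 they were Abcc1 (0.03), Socs3 (0.04) and Sidt2 (0.07), and for Myc they were Pafah1b2 (0.15), Tut4 (0.18) and Isg20 (0.19). With 4 arrays many genes lie close by, 24 within 0.5 of Nr4a3, 1395 within 0.5 of Egr2 and 107 within 0.5 of Myc.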

How the data were processed

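The authors deposited linear GCRMA intensities, 1 per probe set and array; the submitters' processing notes name GCRMA 1.1.3. This method removes a background estimated from probe sequence, brings the arrays to a common scale and combines the probes of a set, which leaves dim sets close to a floor with small differences. Total RNA (Qiagen RNeasy) was amplified and biotin-labelled with Ambion Message Amp II, per the labels. No pseudocount was added before taking log2, and the number of arrays limits the precision. Groups and replicate numbers came from the sample titles.

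Of 45101 probe sets, 64 controls were left out. Of the rest 34945 carried 1 gene symbol, 932 several and 9160 none, and genes were named only from single symbols. Entrez identifiers of 34741 matched the mouse gene table (GRCm38.p6), which changed 0 symbols. Testing covered the 16281 probe sets whose log2 intensity averaged 4 or more and used limma 3.58.1 (R 4.3.3; lmFit followed by eBayes, intensity trend on), two-sided, Benjamini-Hochberg adjusted over all of them. Residual degrees of freedom were 2, and the prior counted for 2.98. Lists were counted by the brightest probe set of each gene. The procedure was tested on simulated data, but no outcome is given here, so its power with 2 samples per group is not stated. Python 3.11.15, pandas 2.3.3 and matplotlib 3.10.9 made tables and plots. 

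The members and lists were chosen with earlier results of these data known, so the background shares set beside their counts give no test of enrichment. The text names every member, Foxp3, up to 4 genes per list with the largest difference, the tested genes of pathway lists of up to 6 (EGR and NR4A partners) and the 3 genes nearest in pattern to Nr4a3, Egr2 and Myc; marker lists are given by counts, sums and examples, and all others were named after their values were seen. Alternatives covered the filter, trend, scaling, pseudocount, floor, 1 row per gene, the replicate block and leaving out each array.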

Additional observations from a re-analysis of the deposited data

How the results depend on the processing

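Over 14 alternative settings the tested members gave 123 values with a test, of which 117 kept their sign and stayed above an adjusted p of 0.05, and 6 had the opposite sign. A further value, Nr4a2 on 1455034_at with the stricter filter, had no test since the probe set lay below it. The 6 belonged to Egr1 and Egr3, with -0.034 and -0.009 under quantile normalization between arrays and ranges of -0.268 to 0.325 and -0.071 to 0.167 over the fits that left out 1 array. Settings that changed only the filter, the trend, the row per gene or the replicate block left every difference unchanged, so these signs could not turn. Of the settings with all 4 arrays, only the stricter filter let any probe set of the array pass an adjusted p of 0.05. In the others, staying above it was no property of the members. The lowest adjusted p of a tested member was 0.171 in limma, for Nr4a3 with the crossed replicate block described below. With a stricter filter (mean log2 of at least 6, 10024 probe sets tested) 13 lower and 7 higher probe sets passed an adjusted p of 0.05, none of them a member. With 1 row per gene the median over the members was -0.787, since the probe sets near the floor drop out. Leaving out 1 array, the count of early response genes differing by at least 1 without overlap ranged from 6 to 14 in the lower and from 0 to 4 in the higher direction; the cause was not tested. Every such fit keeps a group of 1 sample, which is assumed to vary like the other group. Lack of overlap is easier to meet there, and the shares over all tested genes in these fits are not given.

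The replicate numbers are not stated to pair samples, and deviations of same-numbered samples correlated at -0.243 over 16281 probe sets. With the replicate block 0 probe sets passed an adjusted p of 0.05, as without it, and 428 lower and 664 higher ones had an unadjusted p under 0.05. A crossed replicate block, added after seeing the data, also gave 0 past the threshold. With it 872 lower and 1280 higher probe sets had an unadjusted p under 0.05 in limma. Probe sets near the floor limit what can be said of Nr4a2, Nr4a3 and Egr3 beyond their brighter probe sets.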

Other observations

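Beside the NR4A genes, 13 genes had an upstream window of 250 bases with TGACG at least 4 times, among them Rpl34, Slc25a3, Aff4, Mia3 and Ip6k1. They were named after the search.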
